A study of Mus musculus with 18 samples.

Results

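*Gas5*, *Snhg1*, *Snhg3*, *Snhg5*, *Snhg6*, *Snhg8* and *Snhg12* are long noncoding RNA genes whose introns carry small nucleolar RNAs. The 7 genes were taken by name from the 23420 genes listed in each of 3 tables of expression in the embryonic mouse lung, and each has 1 row in every table. They were chosen because *Gas5* lay far below its controls in the *Vangl1/2* mutant lungs. The *Vangl1/2* values are therefore given as a description with no test, whereas both *Wnt5a* comparisons played no part in the choice and were tested.

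Whole embryonic lungs were profiled by bulk RNA-Seq in a study of planar cell polarity, the alignment of cells within the plane of a tissue, and of how *Wnt5a* and *Vangl* act in lung branching. Each of the 3 experiments has 3 control and 3 mutant libraries, 18 in all. In the first, at E12.5dpc (embryonic day, counted in days post coitus), controls are labelled Vangl1-/- and mutants Vangl1-/-; Vangl2-/-, so that by their labels all 6 libraries carry the *Vangl1* mutation and the groups differ in *Vangl2*. By the study's account *Vangl1* was disrupted by a gene trap, and the *Vangl2* null allele came from a floxed allele deleted throughout the embryo by Sox2-Cre. Mutants so made carry that Cre, and the labels do not say whether their controls do. In the second, also at E12.5dpc, controls are Wnt5a f/+; Dermo1Cre and mutants Wnt5a f/f; Dermo1Cre, with a Cre that is active in the mesenchyme. In the third, at E13.5dpc, controls are Wnt5a f/+; Sox9Cre and mutants Wnt5a f/f; Sox9Cre, with a Cre that is active in the epithelium. All 12 *Wnt5a* libraries thus carry a Cre and at least 1 floxed *Wnt5a* allele. The labels state neither the number of embryos behind each library nor that libraries came from separate embryos, so the p-values measure only the spread between these libraries.

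A snoRNA host gene is transcribed and spliced, and the small nucleolar RNAs (snoRNAs) are trimmed out of the removed introns. The snoRNAs enter the nucleolus, where C/D box snoRNAs guide ribose methylation and H/ACA box snoRNAs guide pseudouridylation of ribosomal RNA. The spliced host RNA is exported, often begins with a terminal oligopyrimidine (TOP) tract like that of ribosomal protein mRNAs, and is commonly destroyed by nonsense-mediated decay when it is translated. *Gas5*, growth arrest-specific 5, was named for its accumulation in cells that stop growing, and its RNA is known to bind the glucocorticoid receptor as a decoy. In bulk libraries, fewer cells that express a gene and less RNA of that gene per cell cannot be told apart.

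The hosts differ in what they carry. GENCODE release M21, on the mm10 coordinates that the submitters name, lists 10 snoRNA entries inside *Gas5*, 8 inside *Snhg1*, 5 inside *Snhg12*, 2 each inside *Snhg3* and *Snhg5* and 1 each inside *Snhg6* and *Snhg8*. Every entry lies on the strand of its host and within an intron of at least 1 of its transcripts. *Snord80* in *Gas5* and *Snora16a* in *Snhg12* are each listed as overlapping pairs. Examples are given 5′ to 3′ for 6 hosts, from GENCODE, to show that the product of the intron is a different RNA from the spliced one that the tables measure. Capitals mark the letters TGATGA of box C and CTGA of box D in the C/D class, and the letters ACA near the end in the H/ACA class. *Snora73a*, also called U17, takes part in the processing of precursor ribosomal RNA, and *Snord47* is a C/D box guide.
Snord47 in Gas5, chr1:161038082-161038158, plus strand: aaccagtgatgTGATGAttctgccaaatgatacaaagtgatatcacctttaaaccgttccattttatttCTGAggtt
Snord80 in Gas5, chr1:161037601-161037681, plus strand: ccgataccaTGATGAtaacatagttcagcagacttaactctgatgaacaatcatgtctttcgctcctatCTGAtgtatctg
Snora73a in Snhg3, chr4:132352775-132352979, minus strand: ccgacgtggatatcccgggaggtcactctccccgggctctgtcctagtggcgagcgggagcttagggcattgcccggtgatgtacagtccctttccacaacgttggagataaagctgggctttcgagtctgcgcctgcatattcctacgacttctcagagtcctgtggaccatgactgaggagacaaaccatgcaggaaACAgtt
Snord50a in Snhg5, chr9:88521529-88521600, minus strand: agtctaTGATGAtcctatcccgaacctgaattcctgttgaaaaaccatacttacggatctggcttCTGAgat
Snord87 in Snhg6, chr1:9942463-9942549, minus strand: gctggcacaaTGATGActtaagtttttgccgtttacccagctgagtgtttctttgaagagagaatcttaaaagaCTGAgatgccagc
Snora24 in Snhg8, chr3:123507937-123508066, minus strand: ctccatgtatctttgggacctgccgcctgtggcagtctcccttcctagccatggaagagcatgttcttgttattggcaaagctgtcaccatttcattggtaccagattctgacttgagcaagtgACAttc
Snora61 in Snhg12, chr4:132310240-132310369, plus strand: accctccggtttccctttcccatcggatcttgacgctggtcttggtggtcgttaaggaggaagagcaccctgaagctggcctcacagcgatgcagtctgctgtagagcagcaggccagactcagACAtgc
Snord99 in Snhg12, chr4:132310691-132310764, plus strand: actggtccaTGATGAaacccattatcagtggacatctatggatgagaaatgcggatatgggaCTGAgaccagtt

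The starts of most hosts hold a TOP-like run. RefSeq windows on GRCm38.p6, from 50 bases before to 50 bases after an annotated start, were matched for 6 of the 7 members (not *Snhg6*). They were searched on the transcribed strand for a TOP-like run, a C followed by at least 4 letters that are each C or T, beginning within 10 bases of the start. Of the 6 members, 5 hold such a run at an annotated start, *Gas5* at the second of its 2 starts, and *Snhg1* holds none by this search. The same search finds a run at 32.6% of the 27025 genes with a window and at 60.3% of 58 ribosomal protein genes. A match is a description of these letters and no measure of use. The windows are shown because TOP starts are the feature that host genes are known to share with ribosomal protein genes, which are set beside them in what follows. Capitals mark the run.
Gas5, chr1:161035116-161035215, plus strand: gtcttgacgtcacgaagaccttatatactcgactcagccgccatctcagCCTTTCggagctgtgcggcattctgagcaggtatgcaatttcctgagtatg
Snhg1, chr19:8723437-8723536, plus strand: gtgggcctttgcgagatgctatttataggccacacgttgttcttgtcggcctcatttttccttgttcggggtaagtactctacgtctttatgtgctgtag
Snhg3, chr4:132353637-132353736, minus strand: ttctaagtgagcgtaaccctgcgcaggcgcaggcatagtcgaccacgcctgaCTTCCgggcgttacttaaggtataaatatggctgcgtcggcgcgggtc
Snhg5, chr9:88522848-88522947, minus strand: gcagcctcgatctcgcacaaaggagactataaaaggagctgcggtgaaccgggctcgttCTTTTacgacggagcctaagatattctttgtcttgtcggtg
Snhg8, chr3:123508287-123508386, minus strand: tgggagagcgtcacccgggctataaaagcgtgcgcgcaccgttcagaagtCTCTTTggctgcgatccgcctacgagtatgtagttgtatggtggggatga
Snhg12, chr4:132308628-132308727, plus strand: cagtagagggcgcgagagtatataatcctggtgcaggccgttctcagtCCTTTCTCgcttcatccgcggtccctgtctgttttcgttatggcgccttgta

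The positions of the members bear on how their reads were counted. *Gas5* (chr1:161034422-161038539, plus strand) overlaps *Zbtb37* on the opposite strand. *Snhg3* (chr4:132348014-132353686, minus strand) overlaps *Rcc1* on its own strand, and *Snhg6* (chr1:9941959-9944118, minus strand) overlaps *Mcmdc2* on the opposite strand. *Snhg12* (chr4:132308623-132311024, plus strand) starts near *Trnau1ap*, and *Snhg1* (chr19:8723475-8726443, plus strand) lies 106 bases from *Slc3a2*. *Snhg5* (chr9:88521050-88522929, minus strand) has no protein-coding gene within 10 kb, and *Snhg8* (chr3:123507552-123508404, minus strand) lies 955 bases from *Prss12*. Whether reads were counted by strand is not given in the sources used here, so the values of *Gas5*, *Snhg3* and *Snhg6* are uncertain to the extent that they share reads with a partner.

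The value of a gene in a library is its read count scaled by the library's size factor, as deposited by the authors and called a normalized count here. The libraries hold between 15945393 and 19814346 reads on genes. Each table was normalized separately. The labelled tissue was checked against its markers. All 6 epithelial and all 6 mesenchymal marker genes passed the filter in every table, *Nkx2-1* lay between 2100 and 2884 normalized counts, and *Foxf1* between 2371 and 3816. Of the 14303 genes tested in the *Vangl1/2* comparison 1 was called at an adjusted p under 0.05 (0.00699%), *Vangl2*, and 6183 were without control replicate 2. *Vangl2* was lower in all 3 *Vangl1/2* mutants (86.5, 79.8 and 89.6) than in their controls (276.8, 406.3 and 334.2). *Vangl1* was counted in all 6 libraries, at 162.1, 219.0 and 113.5 in controls and 238.5, 273.9 and 242.2 in mutants, so that the groups were apart with the mutants higher (log2 0.65 ± 0.23, limma adjusted p = 0.233). In the 12 *Wnt5a* libraries, normalized separately, it lay between 408.9 and 508.4. A gene trap can leave reads of the gene, so counts over the whole gene do not check that label. *Wnt5a* groups overlapped in both *Wnt5a* tables. With Dermo1-Cre it measured 472.0, 429.6 and 489.5 in controls and 316.6, 435.7 and 229.7 in mutants, overlapping through mutant replicate 2. The log2 difference was -0.55 ± 0.19 (limma adjusted p = 0.406). With Sox9-Cre the log2 difference was -0.12 ± 0.10. Counts over the whole gene in whole lungs do not check a deletion in part of the tissue. Control replicates 1 and 3 of the *Vangl1/2* table stood apart from the other 16 libraries in the sum over 80 ribosomal protein genes, at 1438853 and 1606304 normalized counts, against 905673 in control replicate 2 and between 832647 and 928721 in the mutants. The members of that table are also given without control replicate 2, and with that library set apart. Without it only controls 1 and 3 remain, the libraries that stood apart, so such values are no check of robustness.

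*Gas5* was the most abundant member per length in the lung. In the 9 control libraries it had a median of 350.2 CPM per kilobase of transcript (range 237.5 to 410.4). *Snhg1* followed at 100.2, *Snhg3* at 80.2, *Snhg5* at 68.9, *Snhg8* at 33.0, *Snhg6* at 24.2 and *Snhg12* at 15.8. The ranges of neighbours in this order overlapped for *Snhg1* and *Snhg3*, *Snhg3* and *Snhg5*, *Snhg8* and *Snhg6*, and *Snhg6* and *Snhg12*, whereas *Gas5* was apart from *Snhg1*, and *Snhg5* from *Snhg8*. The scale uses the median length of a gene's annotated transcripts, which is 629 bases for *Gas5* and 915 for *Snhg12*, and the 9 libraries come from tables normalized separately.

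*Gas5* in the *Vangl1/2* table measured 2943.5, 3906.6 and 3945.1 normalized counts in the 3 controls and 1901.0, 1528.4 and 1912.4 in the 3 mutants. The groups did not overlap, and mutant replicate 2 was the lowest library. The mutant mean of 1781 ± 218.5 (SD, n = 3) was 0.495 times the control mean of 3598 ± 567.5 (SD, n = 3). On the log2(normalized count + 1) scale the difference was -1.01 ± 0.15 (SE). This was the 40th lowest of 14303 genes tested in that table, of which 0.287% had a log2 fold change at or below -1. Without control replicate 2, and so with controls 1 and 3 alone, the difference was -0.94. As CPM (counts scaled to the same total in every library), the 3 mutants (80.6 to 101.9) were the lowest of all 18 libraries, and the next was *Vangl1/2* control replicate 1 at 149.4.

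**Figure D1:**
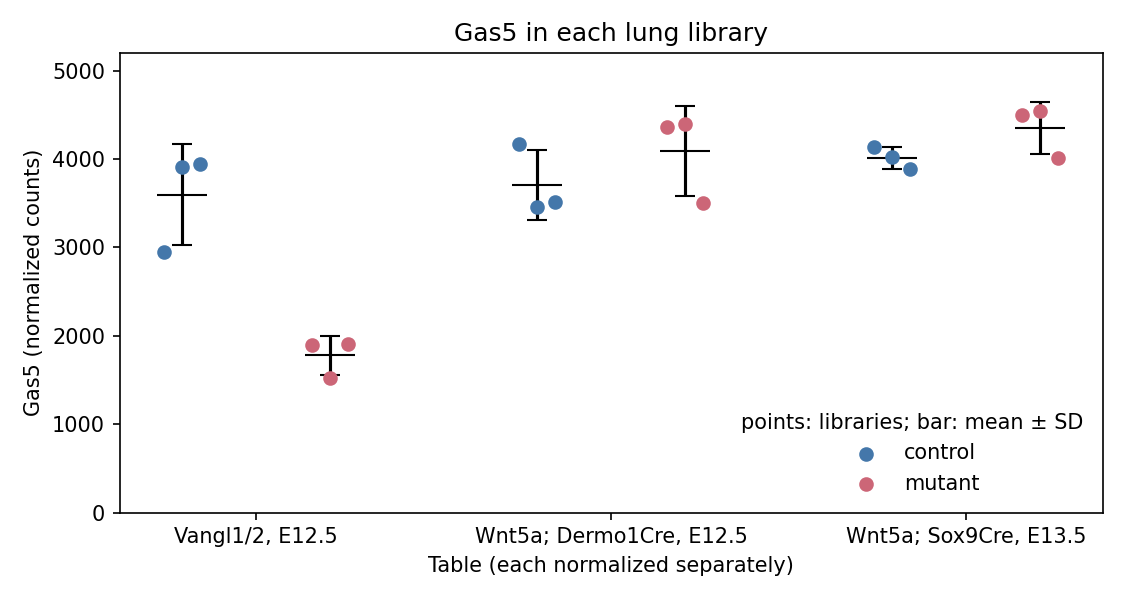
Normalized counts of *Gas5* (vertical axis, from 0) in each of the 18 libraries, by table and group; bars are the mean ± SD of 3 libraries and each table was normalized separately. The 3 *Vangl1/2* mutants lie between 1528.4 and 1912.4, below their controls, whereas the *Wnt5a* groups overlap between 3452.6 and 4542.4.

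The other 6 hosts were lower in the *Vangl1/2* mutants by smaller amounts. *Snhg8*, host of *Snora24*, measured 498.8, 329.9 and 486.6 normalized counts in controls and 322.0, 274.9 and 315.1 in mutants, a log2 difference of -0.51 ± 0.17 (SE). Control replicate 2 exceeded the highest mutant by only a few counts. *Snhg3*, host of the U17 snoRNAs, measured 860.3, 653.3 and 790.3 in controls and 559.5, 647.4 and 507.1 in mutants (log2 -0.42 ± 0.14). Here too the lowest control, replicate 2, was close to the highest mutant. *Snhg12*, host of *Snora16a*, *Snora44*, *Snora61* and *Snord99*, measured 452.4, 370.0 and 378.3 in controls and 317.0, 291.7 and 307.2 in mutants (log2 -0.38 ± 0.12). *Snhg5*, host of *Snord50a* and *Snord50b*, measured 1182.6, 1122.0 and 1383.0 in controls and 985.2, 842.5 and 1034.0 in mutants (log2 -0.37 ± 0.12). In both genes a gap separated the groups.

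*Snhg1*, the host of *Snord22* and 7 further entries, measured 1316.8, 1163.0 and 1327.3 normalized counts in controls and 1128.1, 986.4 and 954.2 in mutants (log2 -0.31 ± 0.11). *Snhg6*, host of *Snord87*, measured 398.7, 347.6 and 434.0 in controls and 310.0, 307.4 and 340.7 in mutants (log2 -0.30 ± 0.12). In every one of the 7 members all mutants were below all controls. Of the 14303 genes tested, 8.68% had mutants below controls without overlap, and 51.2% had a log2 fold change below 0. Since the members were chosen on this comparison, nothing is read from their count. Without control replicate 2 the differences of the 6 hosts other than *Gas5* ran from -0.37 (*Snhg1*) to -0.70 (*Snhg8*). Controls 1 and 3 were then the only controls. *Gas5* made up 38.5%, 49.5% and 45.1% of the summed counts of the 7 members in controls and 34.4%, 31.3% and 35.6% in mutants, so that its share was also lower in each mutant than in each control.

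**Figure D2:**
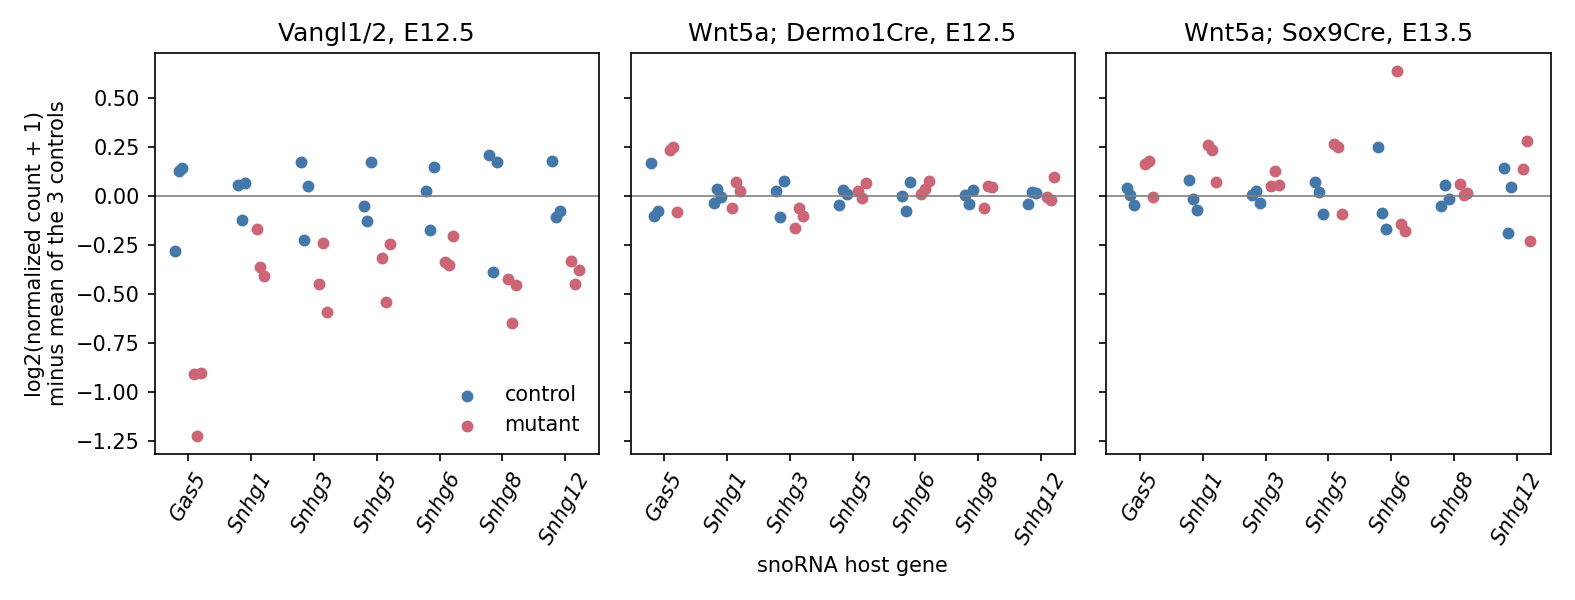
Each host gene in each library as log2(normalized count + 1) minus the mean of the 3 controls of its table (vertical axis), with blue points for controls and red for mutants, in 3 panels by table. In the *Vangl1/2* panel *Gas5* mutants lie lowest, and control replicate 2 of *Snhg8* (329.9 normalized counts) sits just above its mutants.

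Among the *Vangl1/2* controls, replicate 2 was placed differently for *Gas5* than for the other hosts. In that library *Gas5* was 0.20 higher on the log2 scale than in controls 1 and 3 and 1.14 higher than in the mutants. The other 6 hosts lay between 0.16 (*Snhg12*) and 0.58 (*Snhg8*) below controls 1 and 3 in it, and between 0.12 (*Snhg8* and *Snhg6*) and 0.28 (*Snhg12*) above the mutants. The 79 ribosomal protein genes tested were all below controls 1 and 3 in that library, by a median of 0.74, and lay a median of 0.04 above the mutants. For *Snhg8*, *Snhg3* and *Snhg6* this library was thus nearer to the mutants than to controls 1 and 3, as for the ribosomal protein genes. For *Snhg5* its log2 difference was -0.19 from those controls and 0.24 from the mutants, and *Snhg12* too was nearer to the controls. *Snhg1* lay about midway (-0.18 and 0.19). For *Gas5* the library was with the controls. All of these distances rest on that single library.

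The ribosomal protein genes, which share TOP starts with many hosts, summed lower in the *Vangl1/2* mutants than in controls 1 and 3. Control replicate 2, at 905673 normalized counts, lay among the mutants (914529, 928721 and 832647), so the sums of the groups overlapped. The log2 fold change was negative for all 79 tested, and its median was -0.55 beside -0.01 for all genes tested, and 19 of the 79 had mutants below controls without overlap, beside the 8.68% of all genes. Set against this sum, *Gas5* measured 2.05, 4.31 and 2.46 per 1000 ribosomal protein counts in controls and 2.08, 1.65 and 2.30 in mutants. On that scale control replicate 1 fell within the mutants, and the groups of *Gas5* overlapped. The other 6 hosts summed to 3.27, 4.40 and 2.99 per 1000 in controls and 3.96, 3.61 and 4.15 in mutants, which also overlapped. The part of the ribosomal protein difference in the result for *Gas5* was not tested.

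**Figure D3:**
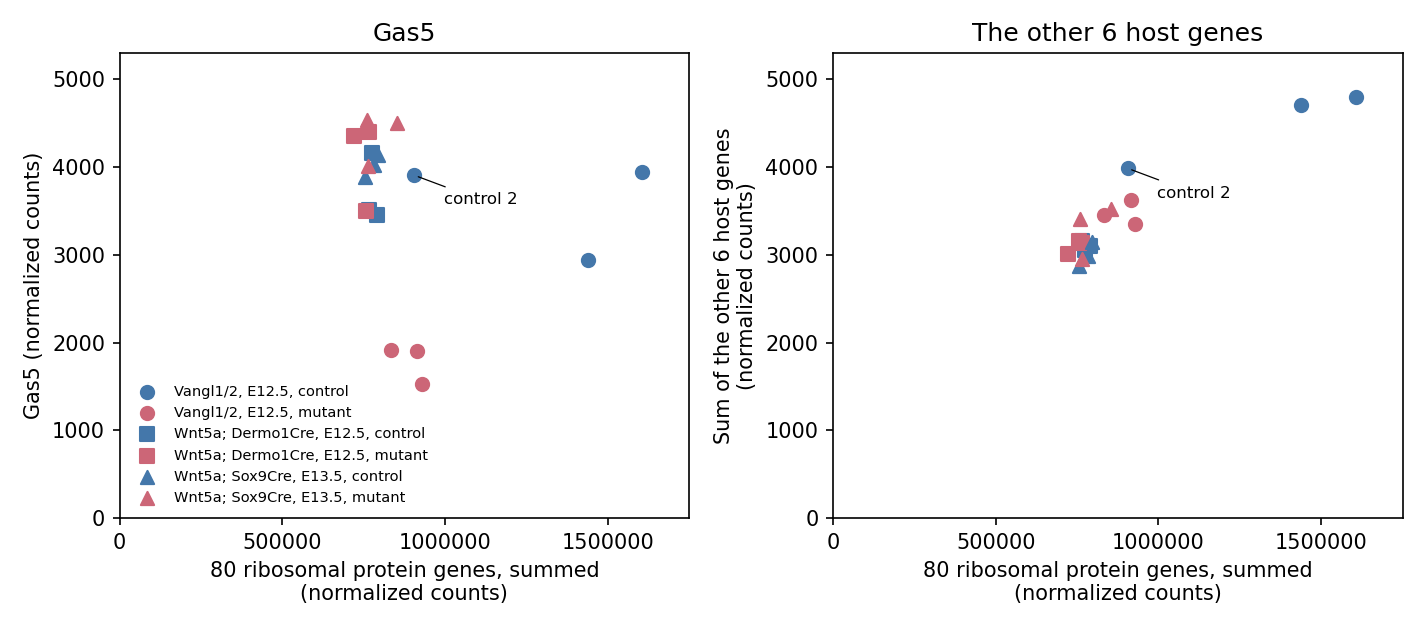
*Gas5* (left) and the sum of the other 6 host genes (right), in normalized counts, against the sum over 80 ribosomal protein genes in normalized counts, for 18 libraries; symbols mark the table and colours the group, and all axes start at 0. *Vangl1/2* control replicate 2 has a ribosomal protein sum of 905673 like the mutants, but 3907 counts of *Gas5*, and the mutants lie alone at the bottom of the left panel.

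Transcript length went with the fold changes in that table. The members are short, with median transcript lengths between 437 bases (*Snhg3*) and 915 bases (*Snhg12*). With a smooth trend of the fold change on transcript length removed, *Gas5* stood at -0.87, *Snhg8* at -0.32, *Snhg12* at -0.27 and *Snhg5* at -0.25. *Snhg3* moved from -0.42 to -0.19, *Snhg1* from -0.31 to -0.17 and *Snhg6* from -0.30 to -0.13, each by more than the spread between its replicates. The ribosomal protein median was then -0.40. For *Gas5* the range with 1 library left out was -1.15 to -0.90. Its sign is fixed there, since the groups do not overlap.

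**Figure D4:**
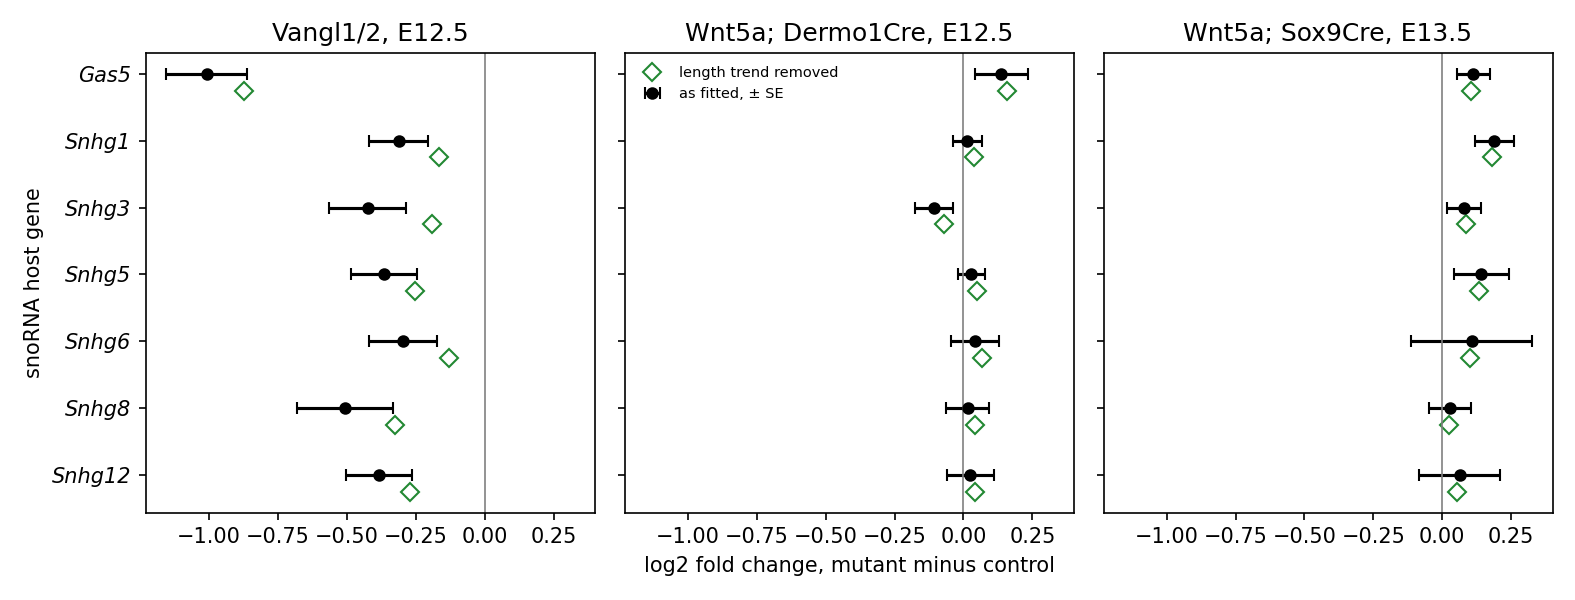
Log2 fold changes, mutant minus control (horizontal axis), of the 7 host genes in each table, with black points and bars of 1 standard error as fitted and open diamonds with the trend on transcript length removed. In the *Vangl1/2* panel *Gas5* moves from -1.01 to -0.87 and the other hosts move toward 0, whereas in the *Wnt5a* panels the diamonds stay close to the points.

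The genes that overlap or adjoin the hosts were also measured in the *Vangl1/2* table. *Zbtb37*, on the strand opposite to *Gas5*, was low, at 52.7, 92.3 and 73.6 normalized counts in controls and 97.6, 97.6 and 116.2 in mutants (log2 0.54 ± 0.23). Its counts are a small fraction of those of *Gas5* in every library. *Rcc1*, which overlaps *Snhg3*, had a log2 difference of -0.20 ± 0.12, *Trnau1ap* next to *Snhg12* one of -0.41 ± 0.16, *Slc3a2* next to *Snhg1* one of -0.13 ± 0.09 and *Prss12* next to *Snhg8* one of 0.13 ± 0.25. *Mcmdc2*, opposite *Snhg6*, did not pass the filter on low values and was not tested.

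The genes most like *Gas5* were found over 13979 genes that passed the filter in all 3 tables, by Pearson's correlation of log2 values centred within each table over the 18 libraries. This is a description across libraries that share their table and depth. They include the *Vangl1/2* libraries on which *Gas5* was chosen, so genes that were lower in those 3 mutants rank high by construction. *Vangl2* itself came first (r = 0.90), with log2 differences of -0.01 and -0.11 in the Dermo1-Cre and Sox9-Cre tables, where those of *Gas5* were above 0. *Klhdc9*, a kelch domain gene, followed (r = 0.88), then *Mutyh*, a DNA repair glycosylase gene (0.88), *1810026B05Rik* (0.84) and *Tsc22d1* (0.82). *Klhdc9* measured 245.8, 233.0 and 300.6 normalized counts in *Vangl1/2* controls and 144.9, 128.1 and 164.5 in mutants (log2 -0.83 ± 0.16). As in *Gas5*, control replicate 2 lay with the other controls. Among the members, *Snhg5* was most like *Gas5* (r = 0.76, rank 22), followed by *Snhg1* (0.68, rank 100), *Snhg8* (0.65, rank 188), *Snhg12* (0.58, rank 627), *Snhg3* (0.55, rank 1011) and *Snhg6* (0.45, rank 2350).

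*Gas5*, *Klhdc9* and the targeted gene *Vangl2* lie on the same chromosome. *Vangl2* (chr1:172000960-172028444) is 10.96 megabases from *Gas5*, and *Klhdc9* (chr1:171358446-171360798) is 10.32 megabases from it. After these values were seen, the 15 genes with the largest log2 fold change relative to its standard error were listed in each table. Of the 15 in the *Vangl1/2* comparison, 6 lie on chromosome 1. They include *Vangl2*, the deleted gene, and *Gas5*, chosen for its value there, and the tally was made once their shared chromosome had been seen, so nothing is read from its size. Beside these and *Klhdc9* they were *Hsd17b7*, *Nucks1* and *Nckap5*, all higher in the mutants. *Hsd17b7*, a cholesterol synthesis gene 2.05 megabases from *Vangl2*, measured 531.9, 516.3 and 414.1 in controls and 796.0, 678.9 and 845.9 in mutants (log2 0.67 ± 0.14). Of the 85 tested genes between *Gas5* and *Vangl2*, 10.6% had mutants below controls without overlap and 10.6% had them above, beside 8.68% and 13.6% of all genes. The labels do not describe the chromosome around the *Vangl2* alleles, so loss of *Vangl2* and any difference in sequence inherited with its allele cannot be told apart here. Whether the controls carry Sox2-Cre is not given either, so presence of that Cre and loss of *Vangl2* cannot be told apart.

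In lungs with *Wnt5a* deleted by Dermo1-Cre, no member passed the test. *Gas5* measured 4165.6, 3452.6 and 3512.6 normalized counts in controls and 4358.3, 4402.3 and 3501.0 in mutants. The groups overlapped, since mutant replicate 3 lay among the controls and control replicate 1 near the mutants. The log2 difference was 0.14 ± 0.10 (SE; 95% confidence interval -0.08 to 0.35; adjusted p = 0.654, limma with Benjamini-Hochberg adjustment). The exact two-sided permutation test gave p = 0.3, where 3 libraries against 3 cannot go below 0.1. The interval does not reach the *Vangl1/2* difference of -1.01, but the difference between the tables was not tested.

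The other 6 hosts stayed closer to their controls in that table. Their log2 differences ran from -0.11 (*Snhg3*) to 0.04 (*Snhg6*), with limma adjusted p between 0.620 and 0.960. *Snhg3* measured 565.2, 514.9 and 586.6 normalized counts in controls and 496.1, 531.9 and 518.3 in mutants (95% confidence interval of the log2 difference -0.26 to 0.05). Its groups overlapped through control replicate 2. *Snhg1* measured 936.9, 985.6 and 955.2 in controls and 921.7, 1007.3 and 978.6 in mutants (interval -0.10 to 0.13). *Snhg5* measured 876.8, 926.4 and 913.6 in controls and 922.7, 900.1 and 947.7 in mutants (interval -0.08 to 0.14). The mutants of both lay around their controls. *Snhg6* lay between 194.7 and 216.7, *Snhg8* between 256.1 and 276.9 and *Snhg12* between 206.4 and 227.7 over all 6 libraries. Of the 7 members 0 were called and 0 had groups apart, beside 0.014% called at an adjusted p under 0.05, 7.92% with mutants apart and lower and 7.65% apart and higher among 14277 genes.

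In lungs with *Wnt5a* deleted by Sox9-Cre, 0 of the 7 members were called, as were 0 of the 14293 genes tested by limma (0% called; 3.9% had an unadjusted p under 0.05). *Gas5* measured 4135.0, 4026.4 and 3886.5 normalized counts in controls and 4497.1, 4542.4 and 4009.1 in mutants. Mutants 1 and 2 exceeded every control, and mutant 3 lay among them. The log2 difference was 0.11 ± 0.06 (SE; 95% confidence interval -0.02 to 0.25; limma adjusted p = 0.9999; exact two-sided permutation p = 0.3). *Snhg1* measured 975.3, 911.0 and 876.9 in controls and 1101.8, 1084.3 and 967.7 in mutants, a log2 difference of 0.19 ± 0.07 (SE), the largest among the members. Its unadjusted limma p was 0.0267 and its adjusted p 0.9999. *Snhg3*, at 512.4, 518.7 and 498.8 in controls and 528.0, 558.2 and 530.0 in mutants, was the 1 member of 7 whose groups did not overlap. Of all genes in this table, 4.42% had mutants above controls without overlap, and the log2 difference of *Snhg3* was 0.08 ± 0.06 (SE; interval -0.06 to 0.22).

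The other 4 hosts also had log2 differences above 0 in the Sox9-Cre table, where 49.3% of all genes were below 0. They ran from 0.03 (*Snhg8*) to 0.14 (*Snhg5*), with overlapping groups and a limma adjusted p of 0.9999 each. *Snhg5* measured 897.0, 867.2 and 801.0 normalized counts in controls and 1026.7, 1017.9 and 801.6 in mutants. Mutant 3 was again with the controls. *Snhg6* rested on 1 library, with 316.2 in mutant 1 beside 184.1 and 179.4 in the other mutants and 241.8, 191.2 and 180.6 in controls. Its interval was correspondingly wide, from -0.39 to 0.61, and without mutant replicate 1 its difference was -0.16. *Snhg12* measured 249.8, 198.1 and 233.4 in controls and 248.9, 274.6 and 192.7 in mutants (interval -0.27 to 0.40). *Snhg8* lay between 275.5 and 297.7 over all 6 libraries. Mutant 3 was the lowest mutant for *Gas5*, *Snhg1*, *Snhg5*, *Snhg6* and *Snhg12*.

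In both *Wnt5a* tables *Gas5* took a steadier share of the 7 members, between 52.5% and 59.1% of their summed counts in all 12 libraries. The ribosomal protein list had a median log2 fold change of -0.06 in the Dermo1-Cre table and 0.03 in the Sox9-Cre table, beside 0.00 for all genes tested in each. Per 1000 ribosomal protein counts, *Gas5* lay between 4.37 and 6.05 in these libraries. That is above each *Vangl1/2* library, although the tables were normalized separately and differ in genotype.

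The snoRNA entries themselves had low counts. They are between 60 and 205 bases long, and whether the libraries kept RNAs this short is not given. The counts are therefore not read as snoRNA abundance. Of 28 snoRNA names that belong to the members, 8 are listed in the tables. *Snora24* is listed at 0 in every library, as is *Mir5117*, a further entry inside *Gas5*. *Snord47* of *Gas5* measured 40.3, 38.2 and 31.5 normalized counts in *Vangl1/2* controls and 40.3, 32.5 and 30.5 in mutants, with overlapping groups (log2 -0.09 ± 0.23). *Snord22* of *Snhg1* measured 84.7, 93.2 and 136.6 in controls and 90.6, 77.8 and 88.6 in mutants (log2 -0.26 ± 0.21). *Snord99* of *Snhg12* was higher in every Dermo1-Cre mutant (18.2, 21.8 and 17.0) than in controls (9.0, 8.0 and 10.9) and did not pass the test (limma adjusted p = 0.375). The host genes thus had far higher counts in these libraries than the snoRNA entries, which does not compare the abundance of the RNAs.

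Other host genes gave a wider view of the class. Of 7 further noncoding hosts tested, 0 were called in any table. *Snhg4* measured 412.1, 397.0 and 423.5 normalized counts in *Vangl1/2* controls and 320.0, 343.9 and 284.6 in mutants (log2 -0.38 ± 0.11), close to *Snhg12* and *Snhg5* in size. *Meg3* and *Rian*, imprinted genes of a locus rich in snoRNAs, had differences of 0.72 ± 0.45 and 0.13 ± 0.12 in that table, and *Meg3* ranged from 1751.9 to 7845.7 among its controls. Of 38 protein-coding hosts, 34 had a log2 fold change below 0 in the *Vangl1/2* table with a median of -0.43, but most of them encode ribosomal or translation proteins and so overlap the ribosomal list. Their sum in control replicate 2 (521644 normalized counts) lay among the mutants (545559, 537473 and 502994), below controls 1 and 3 (734901 and 817574). Examples are *Rpsa* (-0.51 ± 0.22), the heat shock cognate gene *Hspa8* (-0.32 ± 0.14) and the elongation factor gene *Eef2* (-0.17 ± 0.13). In the Dermo1-Cre and Sox9-Cre tables the coding hosts had medians of -0.03 and 0.04, with 0 of 38 called in each.

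*Snhg11* was the host with the largest difference in the Dermo1-Cre table. It measured 45.1, 51.2 and 58.5 normalized counts in controls and 94.8, 245.1 and 206.7 in mutants (log2 1.70 ± 0.31), and did not pass the test (limma adjusted p = 0.162). It is known as a neuronal transcript. Neuron markers, among them *Tubb3* and *Elavl4*, went the same way, with summed levels of 169 to 321 in controls and 409 to 942 in mutants. In the Sox9-Cre table *Snhg11* measured 72.4, 116.5 and 104.7 in controls and 198.1, 60.4 and 24.6 in mutants, and the neuron sum was 489 to 714 in controls and 679, 222 and 245 in mutants. The part of these cells in *Snhg11* was not tested.

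The machinery around host genes showed 0 called genes in every list and table. Among 14 tested proteins of snoRNA particles, 13 were below 0 in the *Vangl1/2* table, with a median of -0.27, and *Nop58*, *Nop56* and *Fbl*, core proteins of C/D particles, had differences of -0.15 ± 0.13, -0.24 ± 0.12 and -0.33 ± 0.16. Among 16 translation factors of the TOP class, 13 were below 0 with a median of -0.34, and *Eef1a1*, *Eef2* and *Npm1* stood at -0.33 ± 0.21, -0.17 ± 0.13 and -0.19 ± 0.20. The particle proteins summed to 36763, 27365 and 39105 normalized counts in controls and 30089, 27909 and 27588 in mutants. The translation factors summed to 579349, 427750 and 664297 in controls and 462011, 447828 and 445765 in mutants. In both lists control replicate 2 lay below every mutant, and controls 1 and 3 lay above. The most abundant ribosomal protein genes *Rpsa*, *Rplp0* and *Rpl4* stood at -0.51 ± 0.22, -0.49 ± 0.21 and -0.37 ± 0.18.

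Regulators of TOP mRNAs and of decay were on both sides of 0 in the *Vangl1/2* table. Of 13 genes of mTORC1 and TOP control, 9 were above 0 (median 0.16). Among the 13, 7 had mutants above controls without overlap and 2 below, beside 13.6% and 8.68% of all genes. *Larp1*, a protein that binds TOP tracts, measured 4030.0, 4890.7 and 3174.8 normalized counts in controls and 5452.5, 5570.5 and 5317.6 in mutants (log2 0.46 ± 0.15). *Eif4e* and *Rps6kb1* stood at -0.15 ± 0.15 and 0.07 ± 0.11. Of 15 nonsense-mediated decay factors, 8 were below and 7 above 0 with a median of 0.00, and their differences ran from -0.39 to 0.79. Mutants were above controls without overlap in 6 of the 15 and below in 0, beside 13.6% and 8.68% of all genes. The most abundant of them, *Eif4a3*, *Pnrc2* and *Rbm8a*, overlapped and stood at -0.36 ± 0.15, -0.11 ± 0.11 and -0.24 ± 0.17. Transcripts known as decay or stress targets had a median of -0.09 over 11 genes, with *Atf4* at -0.31 ± 0.10, *Mdm2* at 0.06 ± 0.09 and *Asns* at -0.23 ± 0.16. In the Dermo1-Cre and Sox9-Cre tables the medians of these lists and of the particle and translation lists lay between -0.06 and 0.06. Of the 16 translation factors, 8 had mutants below controls without overlap in the Dermo1-Cre table and 0 above, beside 7.92% and 7.65% of all genes.

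Genes linked to what *Gas5* is known for lay on both sides of 0. Of 8 growth arrest-specific genes, 5 were above 0 in the *Vangl1/2* table (median 0.10), with *Pmp22* at -0.04 ± 0.11, *Gas1* at 0.15 ± 0.17 and *Gas6* at 0.08 ± 0.11. Of 11 genes of the glucocorticoid receptor and its targets, 7 were above 0 (median 0.14). The receptor gene *Nr3c1* measured 1428.4, 1856.4 and 1218.0 normalized counts in controls and 1923.2, 1938.3 and 2155.6 in mutants (log2 0.44 ± 0.15). Its targets *Fkbp5* and *Tsc22d3* stood at 0.01 ± 0.09 and -0.23 ± 0.12. In the *Wnt5a* tables the medians of both lists lay between -0.03 and -0.01, and 0 genes of either were called.

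Markers of other cells were set beside the members. No marker gene was called by limma in the *Vangl1/2* comparison, where 1 gene was called in all. Mesenchymal markers summed to 15538, 17079 and 16028 normalized counts in controls and 18071, 18649 and 18337 in mutants, so that the sums were apart with the mutants higher. By gene they were mixed, with 5 of the 6 log2 fold changes above 0 and 1 below. Mutants were apart and higher in 2 genes and apart and lower in 1 (log2 -0.42), beside 13.6% and 8.68% of all genes. Mesothelial markers summed to 2214, 2484 and 1582 in controls and 2805, 4045 and 2361 in mutants, and erythroid markers to 42379, 25136 and 39244 in controls and 31730, 28388 and 22928 in mutants, with *Hba-a1* and *Hba-a2* listed at 0 throughout. Endothelial (6407 to 8845) and macrophage sums (756 to 1090) overlapped between the groups. Epithelial (9062 to 11051), neuron (198 to 519) and cardiomyocyte sums (62 to 2348) overlapped between the *Vangl1/2* groups. The part of cell makeup in the difference of *Gas5* was not tested. In the Dermo1-Cre table the epithelial sum was apart and lower in mutants (10314 to 10486) than in controls (11042 to 12085), and the neuron sum was apart and higher, as given above. Cardiomyocyte sums ran from 142 to 9219 in its controls and from 132 to 903 in its mutants. Of the Sox9-Cre sums, 3 were apart with the mutants lower. Cardiomyocyte markers summed to 1793, 3331 and 8689 in controls and 1591, 704 and 107 in mutants. Mesothelial markers lay between 2165 and 2558 in controls and between 1647 and 2101 in mutants, and macrophage markers between 1115 and 1308 and between 956 and 1071. The other sums of both *Wnt5a* tables overlapped, and the part of these cells in the members' values was not tested.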

How the data were processed

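Lungs of mouse embryos were profiled by bulk RNA-Seq (18 libraries in 6 groups of 3). Per the labels, the authors processed reads with Trim Galore, HISAT2, featureCounts and DESeq2 on mm10, and versions are not given in the sources used here. The deposited values are a signal per gene and library: counts divided by a size factor (1 read is worth 0.932 to 1.05). Columns of the authors' own means, log2 fold changes and p-values were not used.

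Each table was fitted alone with limma (version 3.58.1, R 4.3.3) with a mean-variance trend on log2(normalized count + 1). A gene was tested if 3 or more of the 6 libraries held 10 or more normalized counts, and all 7 members passed in each table. P-values were adjusted by Benjamini-Hochberg over all genes tested, at 0.05. Single genes were also tested by an exact permutation test. The fit was tested on simulated data in which no library stood apart. The simulation does not bear on calls that depend on single libraries. Lengths and positions are from GENCODE M21 (92.9% of genes matched), start sequences from RefSeq. Figures were drawn with Python 3.11.15. The members and the lists were chosen with earlier results of these data known, and the 15 genes with the largest relative change were listed after their values were seen. From each list the 3 most abundant genes, plus neighbours within 10 kb and the 5 genes most like *Gas5*, are named, except for a few genes that are not reported here. Marker lists are given by their sums. Alternatives were another pseudocount, no filter, a replicate block, removal of a trend on transcript length, quantile scaling and each library left out.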

Additional observations from a re-analysis of the deposited data

Results flagged for a closer look

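Some members lay on opposite sides of their controls in different tables, every mutant library below the control mean in one table and every mutant above it in another. The differences between tables were not tested, and the *Vangl1/2* values had been used to choose the members. *Snhg1* had a log2 fold change of -0.31 in the *Vangl1/2* table and 0.19 in the Sox9-Cre table. *Snhg3* stood at -0.42 in the *Vangl1/2* table and -0.11 in the Dermo1-Cre table, but at 0.0787 ± 0.0619 (SE) in the Sox9-Cre table. *Snhg6* stood at -0.30 in the *Vangl1/2* table and 0.0416 ± 0.0883 (SE) in the Dermo1-Cre table. *Snhg8* stood at -0.51 in the *Vangl1/2* table and 0.0285 ± 0.0759 (SE) in the Sox9-Cre table. None of these differences in the *Wnt5a* tables passed the test, and the share of all genes that meet the rule is not given here. *Gas5* itself is absent from this group, since 1 mutant in each *Wnt5a* table lay below the control mean.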

How the results depend on the processing

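The log2 fold change of *Gas5* kept its direction under the alternatives run in each table. With 1 library left out it ran from -1.15 to -0.90 in the *Vangl1/2* table, from 0.08 to 0.24 in the Dermo1-Cre table and from 0.08 to 0.17 in the Sox9-Cre table. Directions changed for small differences when 1 library was left out: *Snhg1* (-0.0141 to 0.0499), *Snhg8* (-0.00496 to 0.0510) and *Snhg12* (-0.0122 to 0.0479) in the Dermo1-Cre table, and *Snhg6* (-0.16 to 0.25) and *Snhg12* (-0.0455 to 0.21) in the Sox9-Cre table. Genes called over each table depended on single libraries. The *Vangl1/2* comparison gave 1 call, and between 0 and 6183 with 1 library left out (6183 without control replicate 2, 4 without mutant replicate 3). The 6183 came with controls 1 and 3 as the only controls. The Dermo1-Cre comparison gave 2, and between 0 and 54 with 1 left out (54 without mutant replicate 1). The Sox9-Cre comparison gave 0, and between 0 and 13 with 1 left out (13 without mutant replicate 1, 4 without mutant replicate 2). The causes were not tested. With the replicate number as a block, 0 genes were called in the *Vangl1/2* table and 16 in the Dermo1-Cre table. Correlations of same-numbered libraries lay between -0.22 and 0.30 and so gave no steady sign of pairing. With 3 libraries in a group they cannot show that pairing is absent. Quantile scaling was added after seeing the data. The planned edgeR and DESeq2 tests were not run, because the deposited values were treated as a scaled signal and not as counts. The 3 libraries in a group limit what could be resolved.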
